A study of Caenorhabditis elegans with 2 samples.

Results

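The genes for the subunits of the RNA polymerases, for the TATA-binding protein associated factors (TAFs) and for the Mediator complex were examined for binding of W03F9.2, a protein annotated with a C2H2 zinc finger domain, in Caenorhabditis elegans. Members were chosen by gene name: every protein-coding gene of the WBcel235 annotation whose symbol begins with rpoa-, rpb-, rpc-, taf- or mdt-, plus ama-1. This gave 57 of 19985 protein-coding genes. They comprised 20 polymerase genes (4 of RNA polymerase I, 12 of polymerase II with the subunits it shares, and 4 of polymerase III), 17 TAF genes and 20 Mediator genes. Binding had been measured by ChIP-seq, in which DNA crosslinked to a protein is immunoprecipitated and sequenced. Whole L4 and young adult worms of strain OP215 were used, of mixed sex, as 2 biological replicates of 1 group. Per the labels the animals carried the unc-119(ed3) allele and the integrated transgene wgIs215, which supplies an eGFP-tagged W03F9.2. The labels describe the ChIP as against the eGFP fusion but name W03F9.2 in the antibody field, so whether the antibody recognised the tag or the protein itself is not settled. They do not give the promoter of the transgene or whether untagged W03F9.2 was also present. No untagged worms are among the samples, and material from whole worms averages over tissues.

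RNA polymerase I makes ribosomal RNA, polymerase II makes messenger RNA, and polymerase III makes transfer RNA and other small RNAs. At polymerase II promoters the TAFs form TFIID together with the TATA-binding protein. TFIID binds the core promoter, and Mediator links sequence-specific factors to the polymerase. In C. elegans many genes lie in operons, in which several genes on the same strand are transcribed from a promoter upstream of the first of them.

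A summit, the position that the authors' caller gave as the centre of binding in a peak, was counted for a gene when it fell between 1000 bp upstream and 200 bp downstream of the annotated gene start. This span is called the promoter here. The authors' optimal set, which they label as thresholded by reproducibility, held 2409 peaks with signals from 48.5 to 10729. Their pooled list, made from both replicates, held 30000 entries down to a signal of 9.77. The optimal set equals the strongest 2409 entries of the pooled list. A peak in it is therefore not always strong, or matched, in each replicate. Signal is the authors' own value per peak on their caller's scale. Classes and genes are compared by it only within a list, and the replicate lists are set against each other only as a ratio per summit, with that ratio over all promoter summits beside it. The list of each replicate also held 30000 entries, and its 2409 strongest entries are called its top entries. Read depth is unknown. Intervals are exact 95% binomial intervals over genes and cover counting error only. With 1 group of 2 replicates no comparison over samples could be made, so differences between classes are described and were not tested.

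The sequence under the summit is shown for the strongest TAF, Mediator and polymerase genes whose window holds no annotated untranslated region, for taf-10, whose summit lies in no other gene's promoter, and for mdt-1.2, which the replicate and pooled lists treat differently. Each is the WBcel235 (ce11) sequence from RefSeq of the summit with the 50 bases on either side, printed 5′ to 3′ on the strand of the gene. Capitals mark matches on either strand to GCGC, CGAGA or GAGAGA, in part overlapping. The windows are chrII:14059935-14060035 (plus strand) for rpb-11, chrIII:10505330-10505430 (minus) for taf-11.3, chrV:4686825-4686925 (plus) for taf-10, chrIII:2597214-2597314 (plus) for mdt-19 and chrX:17151330-17151430 (plus) for mdt-1.2. Because 15 of the 18 member summits in the optimal set lie at the middle of their peak, a window is an approximate position.

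rpb-11: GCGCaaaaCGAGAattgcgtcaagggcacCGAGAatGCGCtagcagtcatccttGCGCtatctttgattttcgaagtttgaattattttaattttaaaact
taf-11.3: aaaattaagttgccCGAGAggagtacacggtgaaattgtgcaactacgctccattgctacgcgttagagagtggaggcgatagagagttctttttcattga
taf-10: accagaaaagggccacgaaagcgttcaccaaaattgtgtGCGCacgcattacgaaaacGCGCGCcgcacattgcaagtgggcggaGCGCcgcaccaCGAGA
mdt-19: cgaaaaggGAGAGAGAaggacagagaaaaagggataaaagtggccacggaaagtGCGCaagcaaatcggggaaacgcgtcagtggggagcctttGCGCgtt
mdt-1.2: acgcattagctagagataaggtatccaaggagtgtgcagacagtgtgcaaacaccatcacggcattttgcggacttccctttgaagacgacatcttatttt

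Across all members, 17 of 57 genes (29.8%, interval 18.4 to 43.4) had an optimal-set summit in the promoter, against 11.7% of all protein-coding genes. Polymerase genes had one in 7 of 20 cases (35.0%, interval 15.4 to 59.2) and TAF genes in 6 of 17 (35.3%, interval 14.2 to 61.7). Mediator genes had one in 4 of 20 (20%, interval 5.73 to 43.7). The intervals of the 3 classes overlap widely, and that of Mediator also covers the share of all genes. A further 24 members had only weaker entries of the pooled list and 16 had none. In all 41 of 57 (71.9%, interval 58.5 to 83.0) had any pooled entry, against 40.1% of all genes.

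The replicate lists gave similar shares. Among the top entries of replicate 1, 16 members (28.1%) had a promoter summit, against 10.9% of all genes, and among those of replicate 2, 19 (33.3%), against 11.8%. Polymerase genes had 7 in replicate 1 and 8 in replicate 2, TAF genes 4 and 6, and Mediator genes 5 and 5. The share of TAF genes was thus slightly below that of Mediator genes in replicate 1 (23.5% and 25.0%) and above it in replicate 2 (35.3% and 25.0%), so the order of these classes is not settled by the replicates. In 15 members (26.3%) both replicates had a top entry in the promoter, against 8.39% of all genes.

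**Figure D1:**
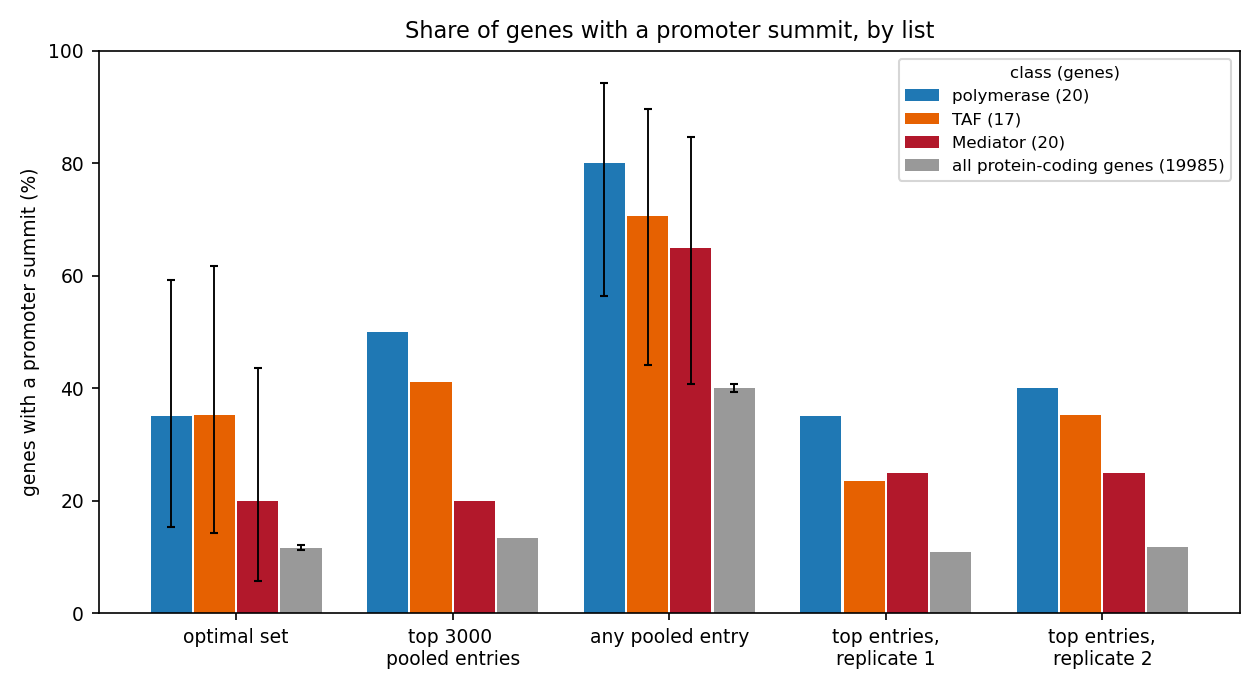
Bars show the percentage of genes with a promoter summit (y axis) in the optimal set, among the 3000 strongest pooled entries, anywhere in the pooled list, and among the top entries of each replicate (x axis), for polymerase, TAF and Mediator genes and for all protein-coding genes. Error bars are exact 95% binomial intervals, drawn for the optimal set and the pooled list. In the optimal set polymerase and TAF genes stand near 35%, Mediator genes at 20% and all genes at 11.7%.

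Polymerase II genes carried most of the polymerase summits, 6 of 12 genes (50%, interval 21.1 to 78.9). The strongest was at rpb-11, whose product pairs with that of rpb-3 in the assembly core of polymerase II. The rpb-11 peak (chrII:14059903-14060065) had a signal of 165 in the pooled list, 70.1 in replicate 1 and 122.7 in replicate 2, and ranked 158, 145 and 100 in those lists. Its summit lay 100 bp upstream of the start, between genes, at a position of -100. The partner gene rpb-3 had a signal of 135, with 56.3 in replicate 1 and 76.6 in replicate 2, and its summit at -122 lay in the interval of 277 bp that separates it from the divergent proteasome gene pas-4. Both genes of this pair of subunits were therefore among the 270 strongest entries of the pooled list in the whole genome.

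Of the stalk subunits, rpb-4 had a signal of 96.5 (43.9 in replicate 1 and 49.97 in replicate 2) at -161, while rpb-7 had only a pooled entry of 36.8 inside its first coding exon, 22 bp downstream of the start. The subunits that polymerase II shares with the other nuclear polymerases were divided. rpb-8 had an optimal-set summit with a signal of 78.5, rpb-10 one of 69.6 and rpb-12 one of 66.0. rpb-5 had a pooled entry of 44.6 that ranked 2744, below the optimal set, and rpb-6 had no entry. rpb-9, which encodes a small subunit known from yeast for its part in transcriptional fidelity, had a pooled entry of 42.6 at 172 bp downstream of the start, in a coding exon.

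The genes for the catalytic subunits of polymerase II were not in the optimal set. ama-1, which encodes the largest subunit of polymerase II, had a pooled entry (chrIV:4247356-4247705) with a signal of 47.5, against the lowest optimal-set signal of 48.5. It ranked 2496, just outside the 2409 peaks of that set. The replicates differed there: the overlapping entry had a signal of 42.9 and rank 1354 in replicate 2, and a signal of 15.0 and rank 5105 in replicate 1. Among the top entries of replicate 2 ama-1 had a promoter summit, and among those of replicate 1 it did not. rpb-2, for the second-largest subunit, had no entry in its promoter in the pooled list. The corresponding large subunit genes of the other polymerases were rpoa-2, with an optimal-set summit of 61.5, and rpoa-1 (32.98), rpc-1 (36.9) and rpc-2 (27.0), with weaker pooled entries.

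Of the 4 polymerase I genes, 1 had an optimal-set summit (25%, interval 0.631 to 80.6), against 11.7% of all protein-coding genes. The single optimal-set summit of a polymerase I gene, at rpoa-2, lay 665 bp upstream of its start and 202 bp upstream of the divergent gene prom-1, which is known for its role in meiotic chromosome pairing. Its signal was 34.9 in replicate 1 and 30.3 in replicate 2. This is the only member summit of the optimal set whose signal was lower in replicate 2. rpoa-12 and rpoa-49 had pooled entries of 36.4 and 14.1. None of the 4 polymerase III genes had an optimal-set summit (interval 0 to 60.2%). The intervals of both classes cover the share of all genes. rpc-11 and rpc-25 had no pooled entry.

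**Figure D2:**
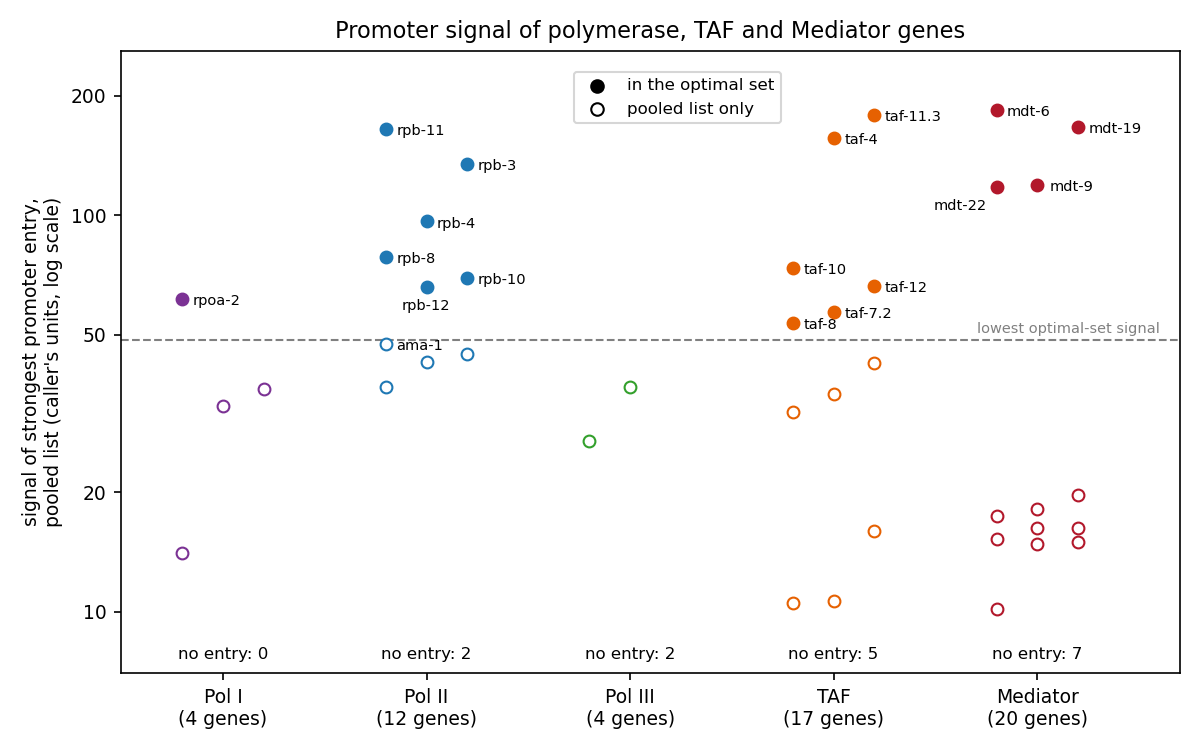
Each point is a member gene, placed by class (x axis) and by the signal of its strongest promoter entry in the pooled list, in the caller's units on a log scale (y axis); filled points are in the optimal set and open points are not. The dashed line is the lowest optimal-set signal, 48.5, and ama-1 lies just under it at 47.5. Mediator members fall into 4 points from 118 to 184 and 9 points from 10.1 to 19.8, with none between. Mediator genes with other names are not plotted.

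Among TAF genes the strongest summits were at taf-11.3 and taf-4. The taf-11.3 peak (chrIII:10505296-10505454) had a signal of 179.5 in the pooled list, 69.5 in replicate 1 and 110.6 in replicate 2, and ranked 118 in the pooled list. Its summit lay 130 bp upstream of taf-11.3 and 100 bp upstream of the divergent gene urm-1, which encodes a ubiquitin-like modifier. taf-4, for a TAF with a histone fold that pairs with TAF-12, had a signal of 156.5 at -333, with 70.1 in replicate 1 and 93.3 in replicate 2. Its divergent neighbour pqn-59 starts 591 bp from the same summit.

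taf-10 had a signal of 73.6 at -228 (26.2 in replicate 1 and 51.7 in replicate 2), and its summit lay in no other protein-coding promoter. taf-12 was the only member with more than 1 optimal-set summit: 1 lay at -951 with a signal of 66.3 and the other at -258 with a signal of 66.1. taf-7.2 had a signal of 57.0 at -157, nearer to the start of elpc-2, an Elongator complex gene, at -97. taf-8 had the lowest signal of the 17 genes, 53.5 at -160. Its replicates were the least alike of the member summits, with 10.3 and rank 10822 in replicate 1 against 37.6 and rank 1758 in replicate 2, so only replicate 2 had a top entry there.

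TAF genes present as paralogues had different signals. Of the taf-11 genes, taf-11.3 had the summit described above, taf-11.1 a pooled entry of 31.9 and taf-11.2 none. taf-7.2 was in the optimal set and taf-7.1 had no entry. taf-6.2 had a pooled entry of 35.5 and taf-6.1 one of 10.6. taf-1, which encodes the largest TFIID subunit, had no entry, and neither had taf-2 and taf-13. taf-3 had an entry of 42.4, taf-9 one of 15.998 and taf-5 one of 10.6.

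Mediator genes with mdt- symbols were divided sharply by signal, although 5 with other names, given below, had signals between these groups (66.9 to 77.2). The 4 mdt- genes with an optimal-set summit had signals of 184 at mdt-6, 167 at mdt-19, 119.5 at mdt-9 and 118 at mdt-22. Their median of 143 was above the 78.5 of polymerase genes, the 69.9 of TAF genes and the 80.2 of all genes with a promoter summit. The top entries of replicate 1 had a median of 47.4 at Mediator genes and 48.2 at TAF genes. These cover other genes, as taf-7.2 and taf-8 were lost there and mdt-1.2 was gained. Over the optimal-set summits, the matched entries of replicate 1 had medians of 54.6 at Mediator and 26.2 at TAF genes. In replicate 2 the top entries had medians of 84.9 at Mediator and 49.8 at TAF genes. The 9 Mediator genes with only weaker pooled entries ranged from 10.1 to 19.8 with a median of 16.2, and their best rank was 10406. The corresponding 9 polymerase genes ranged from 14.1 to 47.5 with a median of 36.8, and the 6 TAF genes from 10.6 to 42.4 with a median of 23.9. Among the 3000 strongest pooled entries, a limit chosen after seeing the data, polymerase genes with a summit therefore numbered 10 (50%) and TAF genes 7 (41.2%), while Mediator genes stayed at 4 (20%), against 13.4% of all genes. The genes that this added were ama-1, rpb-5, rpb-9 and taf-3. With the more stringent set of the 1204 strongest peaks the shares of the classes were close to each other: 4 polymerase genes (20%), 3 TAF genes (17.6%) and 4 Mediator genes (20%) had a summit, against 7.11% of all genes.

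mdt-6, which encodes a head subunit, showed 69.9 in replicate 1 and 109.7 in replicate 2. Its summit lay 916 bp upstream of mdt-6, in the 5′ untranslated region of Y57E12AL.1 on the other strand, 10 bp downstream of that gene's start. It also lay 70 bp upstream of Y57E12AL.6, which is on the strand of mdt-6 and ends 39 bp before it. Nearer to mdt-6, at -137, the pooled list held only an entry of 13.4. mdt-19 showed 61.7 in replicate 1 and 108 in replicate 2. Its summit was 789 bp upstream of mdt-19 and 230 bp upstream of the divergent gene apb-1, which encodes an adaptin.

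mdt-9, for a subunit of the middle module, showed 38.1 in replicate 1 and 84.9 in replicate 2 at -118. The promoters of lsm-3, Y62E10A.20 and Y62E10A.23 held the same summit, and the start of Y62E10A.23 was the nearest at -62. mdt-22, for a head subunit, showed 47.4 in replicate 1 and 70.6 in replicate 2. Its summit at -46 lay in an intron of clpp-1, a mitochondrial protease gene within which mdt-22 starts, and in no other promoter. It was the only Mediator gene whose own start was the nearest to its optimal-set summit. mdt-15, a Mediator subunit known in C. elegans for its role in lipid metabolism, had a pooled entry of 18.2 at -503.

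mdt-1.2 on the X chromosome stood apart from the other genes without an entry. Both replicates had a strong entry in its promoter: in replicate 1 at -171 with a signal of 39.4 and rank 650, and in replicate 2 at -142 with a signal of 74.4 and rank 362. Both ranks are among the top entries. The pooled list had no entry there, and the nearest one lay 4444 bp from the start with a signal of 11.2. Replicate 1 shared 1563 of its 2409 top entries with replicate 2 by overlap, and 22 of these 1563 (1.41%) were overlapped by no pooled entry. mdt-1.2 is thus 1 of 25 protein-coding genes in the genome whose promoter held such a summit. The genes emb-5 and ints-9, which act in elongation and in the Integrator complex, are also among them. What kept these entries out of the pooled list was not tested. The remaining members with no pooled entry were mdt-8, mdt-17, mdt-18, mdt-20, mdt-21 and mdt-29.

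All 18 optimal-set summits of members were matched in both replicates, against 1658 of all 1679 promoter summits. An overlap of 1 bp with any entry of a replicate list counted as a match. Signal was higher in replicate 2 at 17 of 18, against 1468 of 1658 promoter summits matched in both. The median log2 ratio of replicate 2 to replicate 1 was 0.69 with an SD of 0.46 across member summits, against a median of 0.68 and an SD of 0.64 over 1658 matched promoter summits. The log2 ratio ranged from -0.20 at rpoa-2 to 1.87 at taf-8. Top entries of both replicates overlapped 14 of the 18 summits (77.8%), against 67.6% of all promoter summits. By class this held for 6 of 7 polymerase summits, 4 of 7 TAF summits and 4 of 4 Mediator summits. The 6 strongest member peaks, at mdt-6, taf-11.3, mdt-19, rpb-11, taf-4 and rpb-3, were also the narrow ones, 90 to 163 bp wide, while the other 12 had the common width of 350 bp. The same relation held over the whole set: 193 of 236 promoter peaks at or above the signal of rpb-3 (81.8%) were narrower than 350 bp, against 4.30% of those below it.

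**Figure D3:**
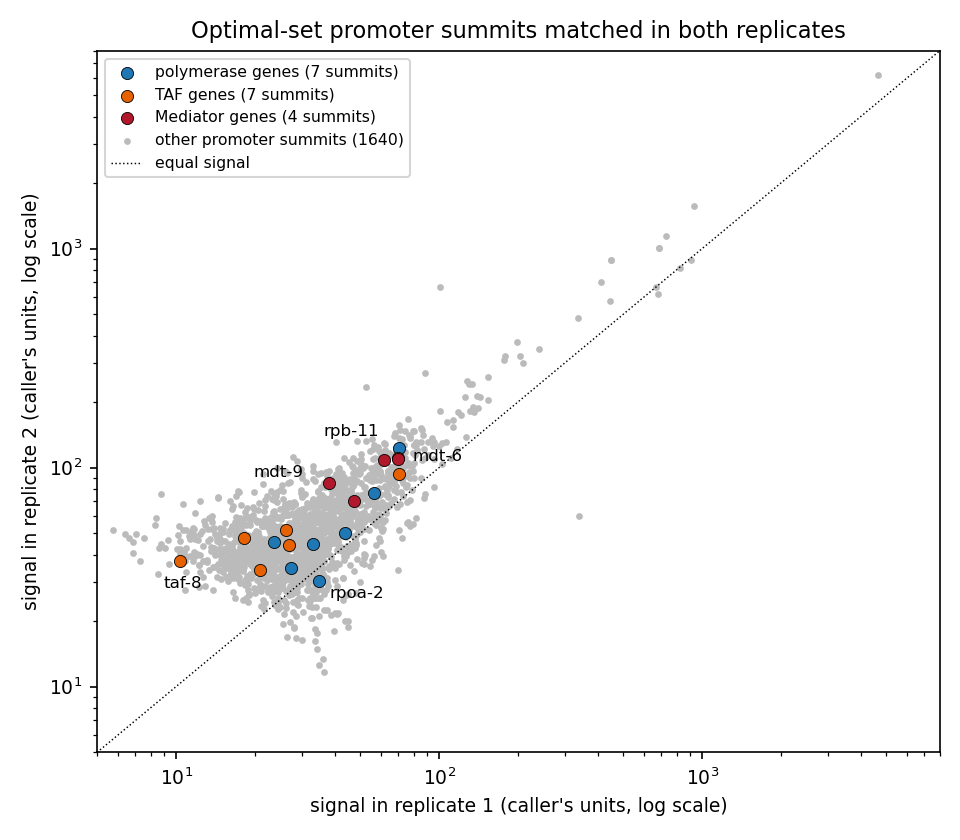
Each point is an optimal-set promoter summit matched in both replicates, with its signal in replicate 1 (x axis) and in replicate 2 (y axis), in the caller's units on log scales. Coloured points are the 18 member summits and grey points are other promoter summits; the dotted line marks equal signal. All member points but rpoa-2 lie above the line, and taf-8 lies farthest from it among them.

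Most member summits also counted for another gene. The strongest summit lay in the promoter of a further protein-coding gene in 13 of 17 members (76.5%, interval 50.1 to 93.2), against 57.7% of all genes with a summit. This was so for 7 of 7 polymerase genes, 3 of 6 TAF genes and 3 of 4 Mediator genes. Of the 18 summits, 11 (61.1%) lay in promoters of both strands, against 37.5% of all promoter summits. The start of the member was the nearest to its summit in 10 of 17 genes, against 1651 of all 2331 genes with a summit. This was so for 5 of 7 polymerase, 4 of 6 TAF and 1 of 4 Mediator genes. When a summit was given to the closest gene start alone, 17.5% of members kept one, against 8.28% of all genes. For Mediator genes this left mdt-22 alone (5%), below the share of all genes. With promoters narrowed to 500 bp upstream and 100 bp downstream, mdt-9 and mdt-22 remained (10%), against 9.52% of all genes.

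The partner genes were of several kinds. Besides pas-4, prom-1, urm-1, elpc-2 and apb-1, they included rars-1, for arginyl-tRNA synthetase, 927 bp from the summit of rpb-8, and mtch-1, 168 bp from that of rpb-4. The rpb-12 summit at -266 lay 333 bp from aly-2 and 924 bp from daf-10, and the rpb-10 summit at -201 lay 94 bp from Y37E3.1 and 884 bp from moag-4. No summit was shared by 2 members. Of the 18 summits, 16 lay between protein-coding genes. The only noncoding gene within 500 bp of any of the 18 was C36B1.16, annotated as ncRNA, which covers the summit of rpb-3. Neither kind of location was counted over all promoter summits. Over the 17 genes the strongest summit lay at a median position of -161, from -951 to -46, against a median of -235 for all genes with one.

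**Figure D4:**
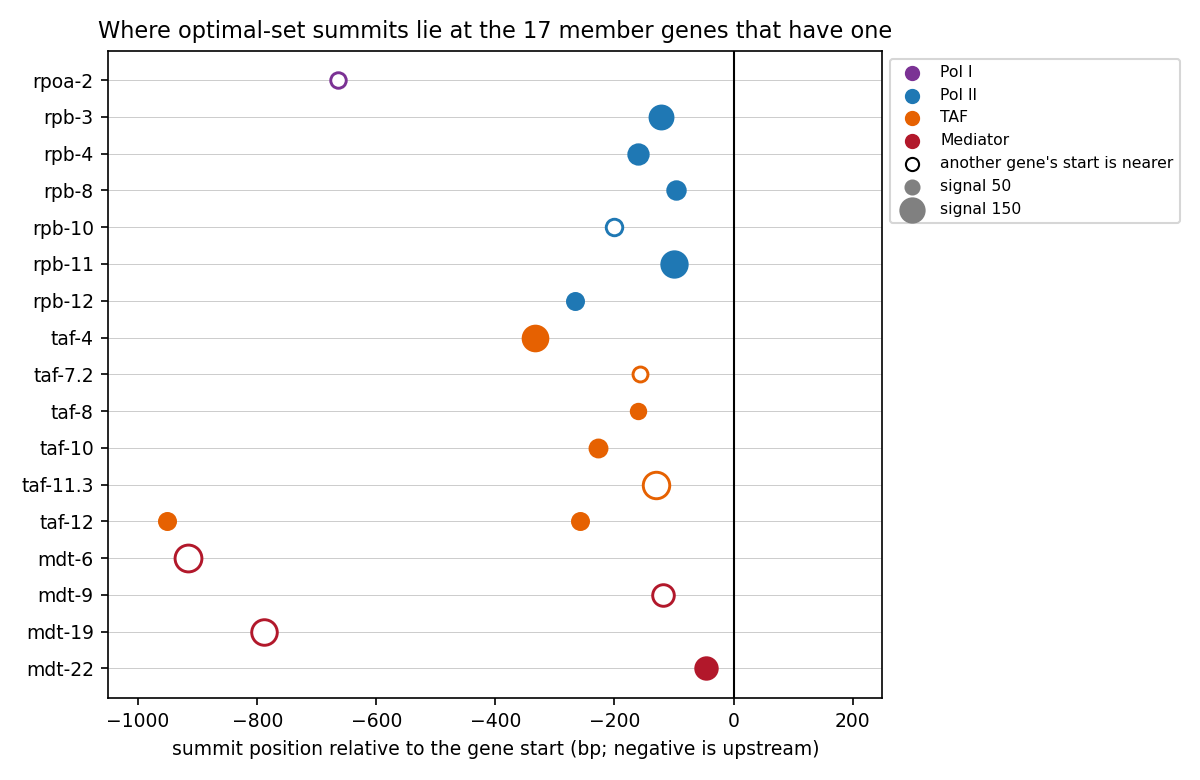
Each point is an optimal-set summit of a member gene (rows), placed by its distance from the gene start in bp (x axis, negative is upstream), with area proportional to signal. Open points mark summits that lie nearer to another gene's start. Polymerase II summits lie between -266 and -96, while those of rpoa-2, mdt-6 and mdt-19 lie at -665, -916 and -789, nearer to another gene.

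Genome layout differed between the classes. The nearest protein-coding gene upstream of the start was divergent for 8 of 20 polymerase genes (40%), 6 of 17 TAF genes (35.3%) and 3 of 20 Mediator genes (15.0%), against 42.1% of all genes. No distance limit was set for a divergent neighbour, so the class is wider than promoters shared by 2 genes. For rpb-11, for example, this neighbour was daf-5 at 7781 bp. Mediator genes had a same-strand neighbour ending at most 500 bp upstream in 10 of 20 cases (50%), polymerase genes in 7 (35.0%) and TAF genes in 4 (23.5%), against 17.7% of all genes. A further 5 Mediator genes (25.0%) started inside another gene, against 6.98% of all genes. The gaps of the 21 members with a close same-strand neighbour had a median of 106 bp, and 15 of them were under 150 bp. Gaps were not summarised over all close-spaced genes, so whether these are unusual is not known. Genes within C. elegans operons are usually closely spaced. An operon annotation was not used here.

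The share of genes with a summit varied with this layout. Members with a divergent neighbour had an optimal-set summit in 10 of 17 cases (58.8%), against 18.5% of all genes so placed, and those with a distant same-strand neighbour in 3 of 11 (27.3%), against 5.45%. Members with a close same-strand neighbour had one in 2 of 21 cases (9.52%), against 8.76% of all such genes, a share near the background. The 2 were rpb-8 and mdt-6. Members that start inside another gene had one in 2 of 8 cases (25%), at mdt-9 and mdt-22, against 7.39% of all such genes. The close-spaced members were then followed upstream through neighbours at most 500 bp apart to the first gene of the run, a comparison added after the layout was seen. That first gene had an optimal-set summit for 9 of 21 members (42.9%), against 25.9% of all close-spaced genes. It was so for 3 of 7 polymerase genes, 1 of 4 TAF genes and 5 of 10 Mediator genes.

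The following summits lay in the promoters of these first genes, and only that of Y57E12AL.6 also lay in the promoter of a member. wip-1, whose end lies 104 bp from the start of mdt-11, had a signal of 321, and Y57E12AL.6, before mdt-6, the 184 given above. hach-1, whose end lies 47 bp from the start of rpc-2, had 181, mlc-5, before taf-9, had 117 and prmt-1, before mdt-17, had 90.0. Y62F5A.12 before mdt-8 had 76.0, syp-4 before rpb-5 66.5, Y97E10AR.6 before rpb-9 57.4 and cec-3, the first gene of the run of mdt-10, 49.6. Whether these genes are transcribed together with the members was not tested.

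**Figure D5:**
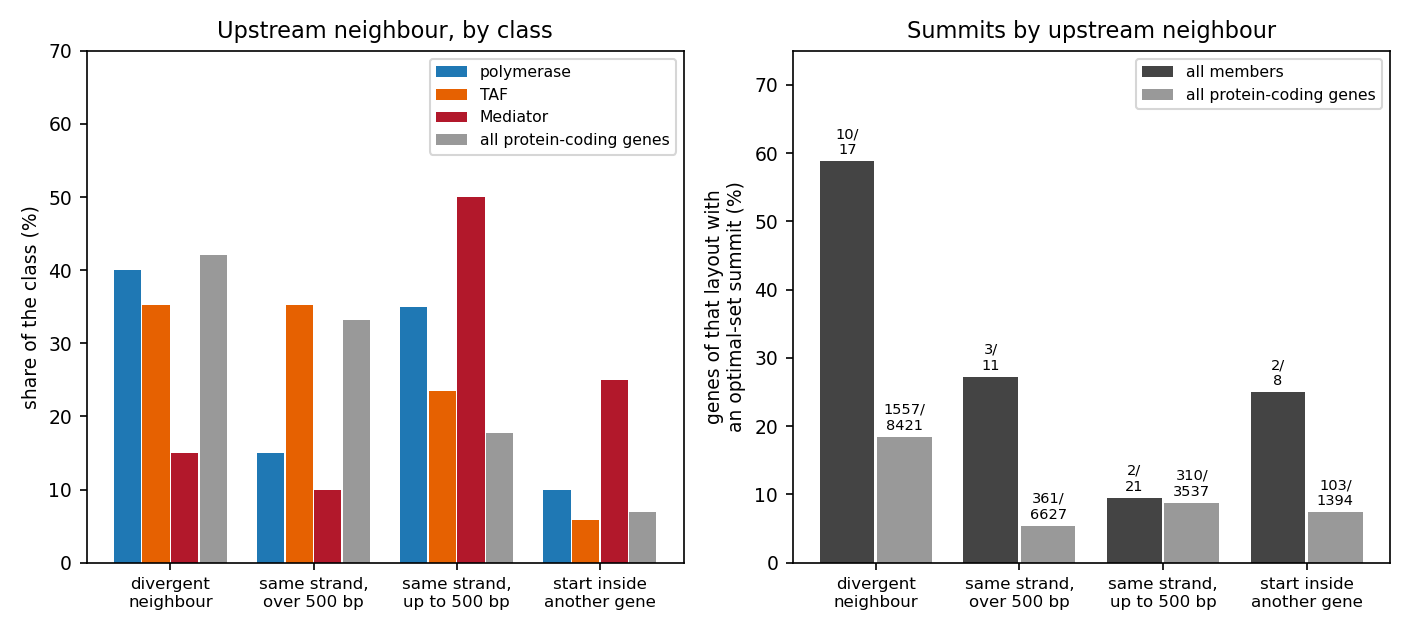
The left panel shows the percentage of each class (y axis) by the nearest upstream protein-coding neighbour (x axis), and the right panel the percentage of genes of each layout that had an optimal-set summit, with counts over the bars. Mediator genes are mostly close-spaced on the same strand or inside another gene, and members of the close-spaced kind had summits in 9.52% of cases against 8.76% of all such genes.

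The short sequences marked in capitals above were counted in the same window around each optimal-set promoter summit, both strands read together. GCGC was present at 11 of 18 member summits (61.1%, interval 35.7 to 82.7), against 52.9% of all promoter summits and 12.4% of windows of the same length centred 150 bp upstream of every start. CGAGA was present at 12 of 18 (66.7%, interval 41.0 to 86.7), against 37.0% and 14.4%. Both were chosen after the windows had been read. Of 5 sequences listed earlier, TTTCAG was present at 4 member summits (22.2%), at rpb-3, rpb-4, rpb-10 and taf-7.2, against 8.04% of all promoter summits and 15.1% of starts. GAGAGA was present at 1, mdt-19, against 17.5% and 8.42%, and TTCCCGC at 1, taf-4, against 3.28% and 1.18%. TATAAA and CTGCGT were at none of the 18, against 6.67% and 15.4% of all promoter summits and 13.4% and 3.102% of starts. The median GC content was 43.6% at member summits and 44.6% at all promoter summits. These matches describe letters in the windows and no factor was tied to them.

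Related genes outside the naming rule were read from lists of symbols. Of 9 Mediator genes with other names, 5 (55.6%, interval 21.2 to 86.3) had an optimal-set summit: sur-2 (signal 77.2), cic-1 (72.5) and cdk-8 (71.2), the last pair encoding cyclin C and its kinase, then lin-25 (69.7) and sop-3 (66.9), a paralogue of mdt-1.2. let-19, dpy-22, rgr-1 and let-49 had no pooled entry. Of 18 genes for the TATA-binding protein family and other general factors, 5 (27.8%, interval 9.69 to 53.5) had one, with the highest signals at cdk-7 (116), a kinase of TFIIH, and tlf-1 (71.2), a TBP-like factor that shares its summit with cdk-8. This shared summit lies at -5 from cdk-8 and at -488 from tlf-1, and it counts in both lists. tbp-1 itself had no pooled entry.

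Elongation, polymerase tail and Integrator genes had an optimal-set summit in 18 of 33 cases (54.5%, interval 36.4 to 71.9), led by ints-4 (179), pafo-1 (121), cdk-9 (120.5) and ints-11 (99.8). Among the 18, cit-1.1 and cit-1.2 were both counted through the same summit (signal 58.1), which the interval treats as separate cases. The pafo-1 peak had a signal of 56.3 in replicate 1 and was overlapped by no entry of replicate 2. cdk-9 encodes the kinase of P-TEFb, which releases polymerase II into elongation. Of 14 further genes for polymerase I and III subunits and factors, 3 (21.4%, interval 4.66 to 50.8) had one: snpc-3.4 (99.9), rpac-19 (95.9) and tftc-1 (81.2). rpac-19, a subunit of polymerases I and III, shares its summit with tbg-1. All of these shares stand against the 11.7% of all protein-coding genes, and differences between the lists were not tested.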

How the data were processed

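The deposited ChIP-seq peak lists cover 2 replicates of whole worms that carry eGFP-tagged W03F9.2. Per the files' accompanying notes they derive from alignments to ce11 and a control alignment. Which aligner, caller and settings were used is not given in the sources used here. In these lists the signal is the authors' deposited score per peak, in their caller's units, and the summit is the deposited offset from the peak start. The 2409 optimal-set peaks were the strongest 2409 of the pooled list. The ce10 lists were not used here. Read depth is unknown.

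Gene models came from Ensembl release 115 (WBcel235), whose coordinates are those of ce11, and sequences from the RefSeq assembly of the same build. Coordinates are 1-based. An entry of a replicate list was matched to a peak where they overlapped by at least 1 bp, taking the strongest. Where promoters overlapped, 1 summit could count for several genes. Assignment was tested on simulated summits. Python 3.11.15, SciPy 1.17.1 and matplotlib 3.10.9 were used.

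Members, gene lists, motifs and settings were chosen with earlier results of these data known. Every member with an optimal-set summit is named, with up to 3 weaker members of each class and up to 4 genes of each related list; further members and genes are named by symbol or were chosen after their values were seen. Sequence windows that overlap an untranslated region, and those of chromosome I, are not shown. No test across samples was made, and sets are described by counts beside all genes.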

Additional observations from a re-analysis of the deposited data

How the results depend on the processing

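All members' share with a promoter summit was 17.5% when a summit was given to the closest gene start alone, outside the interval of the main value of 29.8%, and that of Mediator genes was 5%, outside the interval of 20%, against 8.28% of all genes. With narrow promoters, which lost mdt-6, mdt-19 and rpoa-2, Mediator genes stood at 10%, against 9.52% of all genes. The shares of polymerase and TAF genes stayed within their intervals under every planned setting (a more stringent set of the 1204 strongest peaks, narrow and wide promoters, the nearest start, peak overlap, every transcript start and leaving out each replicate) and with the 3000 strongest pooled entries, which were added after seeing the data. The share of summits shared with another gene was 50% over all members with narrow promoters (500 bp upstream to 100 bp downstream). For Mediator genes it was 100% with wide promoters (2000 to 500 bp), with peak overlap and with every transcript start. Sharing was not counted over all genes under these settings, so whether members still differ from them is not known. In single replicates the median signal is on another scale, and the genes with a top entry differ. Without replicate 1 or 2 this median ranged from 41.7 to 51.7 over all members and from 34.9 to 45.1 for polymerase genes. For TAF genes it ranged from 48.2 to 49.8 and for Mediator genes from 47.4 to 84.9. By top entries of replicate 1 TAF genes were above Mediator genes. Over the matched optimal-set summits they were below them in replicate 1 (26.2 and 54.6). Of the 17 members with a summit, the more stringent set kept 11 (19.3% of members, against 7.11% of all genes). The nearest start kept 10 (17.5%, against 8.28%). Wide promoters kept 17 and added 6 (40.4%, against 14.7%). Without replicate 1, rpoa-2 was lost and ama-1, mdt-1.2 and rpoa-12 were gained; without replicate 2, taf-7.2 and taf-8 were lost and mdt-1.2 was gained. No paired analysis was possible because the samples form a single group. Small classes limit every share: 4 genes of polymerase I or III, for example, give intervals that cover most values.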
